A study of Rattus norvegicus with 24 samples.

Results

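The glucocorticoid receptor gene Nr3c1 was followed through 24 poly-A RNA sequencing libraries of rat amygdala and dorsal raphe. It was taken as a single row, Ensembl ID ENSRNOG00000014096, which is 1 of the 32662 gene IDs in each count table. The tables carry IDs with no symbols. The pairing of this ID with Nr3c1 is general knowledge and was not checked against an annotation here, and every value below rests on it. The rats were 60 days old and came from 2 lines selectively bred for their response to novelty, high responders and low responders. No drug or other treatment is named in the labels. There were 6 libraries in each of 4 groups, namely high-responder amygdala, low-responder amygdala, high-responder dorsal raphe and low-responder dorsal raphe. The labels do not give the sex of the rats, the number of animals behind a library, or whether equal library numbers in both regions stand for the same rat. The p-values therefore rest on the spread between libraries, part of which may be technical. With 1 line bred in each direction, a difference between the lines cannot be told apart from other differences between them.

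The glucocorticoid receptor is a nuclear receptor that rests in the cytoplasm with heat shock chaperones. When it binds corticosterone, the main glucocorticoid of rats, it enters the nucleus and raises or lowers the transcription of target genes. In the brain it takes part in the feedback that ends a stress response. The amygdala lies in the forebrain and takes part in fear learning. The dorsal raphe lies in the midbrain and sends serotonin fibres to much of the forebrain. The receptor is widely expressed, in neurons and glia alike.

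Transcription of Nr3c1 can begin at alternative first exons, whose mRNAs share the same protein-coding exons. The counts were summed over the gene, so the start that gave each read is not resolved. RefSeq lists 15 transcripts of the gene, and the promoter table of build GRCr8 holds 2 of its starts, 780 bases apart on the minus strand of chromosome 18. The 250 bases before each start are shown because reads from both starts fall into the same count. They are written 5′ to 3′ on the gene's strand, and capitals mark the GC box GGGCGG on either strand. The first window is chr18:31614220-31614469 and the second is chr18:31613440-31613689. The counts themselves were made on another build, rn6.
Nr3c1 start 1: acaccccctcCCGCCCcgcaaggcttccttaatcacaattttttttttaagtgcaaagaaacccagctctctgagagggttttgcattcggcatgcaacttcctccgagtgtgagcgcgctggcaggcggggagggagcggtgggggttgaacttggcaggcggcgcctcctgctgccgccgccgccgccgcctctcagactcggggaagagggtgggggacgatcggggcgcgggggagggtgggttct
Nr3c1 start 2: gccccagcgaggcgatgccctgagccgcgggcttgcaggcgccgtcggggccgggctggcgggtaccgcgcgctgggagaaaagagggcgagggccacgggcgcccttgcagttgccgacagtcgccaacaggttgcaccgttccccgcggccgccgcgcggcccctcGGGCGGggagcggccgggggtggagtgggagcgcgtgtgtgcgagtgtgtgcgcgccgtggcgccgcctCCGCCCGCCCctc

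Both windows were rich in G and C, at 64.0% for start 1 and 78.4% for start 2, against a median of 51.2% over all 33469 windows of that length in the table. They held 20 and 38 CpG dinucleotides, against a median of 5. Start 1 had 1 match to the GC box, and start 2 had 3, of which 2 overlapped. The GC box was present on either strand in 30.5% of all windows. Neither window held the TATA box letters TATAAA, found in 12.9% of windows, or the half-site AGAACA of the glucocorticoid response element, found in 17.5%, on either strand. These are matches of letters and were not measured as binding sites.

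The libraries held 9232983 to 20194601 counts each. Nr3c1 was counted 617 to 1819 times per library, 23656 times in all. Counting error alone was thus 2.34% to 4.03% of each library's value. Levels are given in CPM, which are counts set against the library total. The totals were adjusted with TMM factors, which limit the effect of a few genes that take many counts. The tissue labels could not be checked against marker genes, since no ID was paired with a symbol, and the share of each cell type is unknown. In bulk tissue, fewer cells with the receptor and less of its mRNA per cell cannot be told apart.

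Nr3c1 was expressed in every library, at 50.6 to 96.9 CPM, and its level was higher in the amygdala than in the dorsal raphe. In high-responder amygdala the lowest library stood at 78.4 CPM, the median was 87.5 CPM and the highest library stood at 96.1 CPM. In low-responder amygdala these values were 77.0, 83.1 and 96.9 CPM. The 2 amygdala groups covered nearly the same range. In high-responder dorsal raphe the lowest, median and highest values were 64.8, 73.0 and 80.0 CPM. In low-responder dorsal raphe they were 50.6, 71.5 and 74.5 CPM. The lowest value of the series, in low-responder dorsal raphe library 5, had a 95% counting interval of 46.7 to 54.7 CPM, below the 64.8 CPM of the next library of its group.

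**Figure D1:**
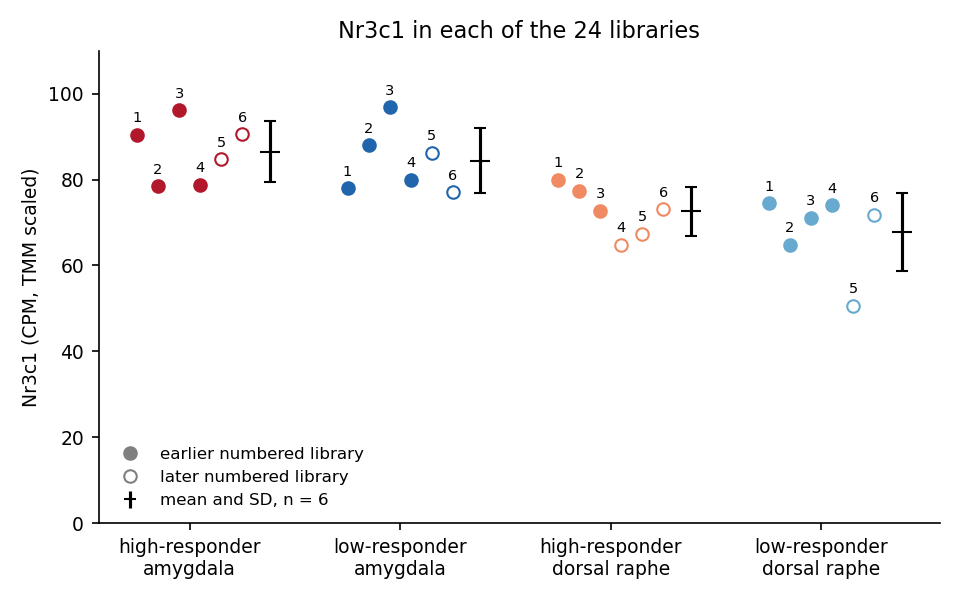
Nr3c1 level in CPM (vertical axis, from 0) in each of the 24 libraries, by group, with the library number above each point. Filled points are libraries with earlier numbers, open points those with later numbers, and bars give the mean and SD of 6 libraries. The amygdala groups average 86.5 and 84.4 CPM and the dorsal raphe groups 72.6 and 67.8 CPM, and low-responder dorsal raphe library 5 lies lowest at 50.6 CPM.

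Mean levels, from highest to lowest, were 86.5 ± 7.08 CPM in high-responder amygdala, 84.4 ± 7.56 CPM in low-responder amygdala, 72.6 ± 5.76 CPM in high-responder dorsal raphe and 67.8 ± 9.11 CPM in the dorsal raphe of low responders (SD, n = 6 per group). All 6 pairs of groups were compared by two-sided exact permutation tests of log2 CPM, with Benjamini-Hochberg adjustment over the 6. The first 2 groups in this order did not differ beyond their spread (exact adjusted p = 0.593), and neither did the last 2 (exact adjusted p = 0.41). The step between them, from low-responder amygdala to high-responder dorsal raphe, was 0.22 on the log2 scale and passed (exact adjusted p = 0.0228). With library totals alone as the scale that step was 0.19 (exact adjusted p = 0.0616). Each of the other pairs of an amygdala with a dorsal raphe group passed. High-responder amygdala lay 0.25 above high-responder dorsal raphe (exact adjusted p = 0.0173) and 0.36 above low-responder dorsal raphe (0.00648), and low-responder amygdala lay 0.32 above low-responder dorsal raphe (0.00648). The smallest unadjusted p that 6 against 6 libraries can give is 0.00216.

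The SD of Nr3c1 between the libraries of a group was 8.19% of the mean in high-responder amygdala, 8.97% in low-responder amygdala, 7.93% in high-responder dorsal raphe and 13.4% in low-responder dorsal raphe. Without library 5 the last value was 5.43%, and the mean of that group was 71.2 ± 3.87 CPM (SD, n = 5). Pooled over the groups, the SD of Nr3c1 was 0.15 on the log2 CPM scale, against a median of 0.19 over the 10080 genes with a mean of at least 10 CPM. Of those genes, 70.7% had a larger SD. They were not matched to Nr3c1 in level, and counting error adds more to the SD of genes with fewer counts.

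The region comparison asked how the receptor's mRNA differs between a forebrain and a midbrain site. Over both lines, the amygdala libraries averaged 85.4 ± 7.07 CPM of Nr3c1 and the dorsal raphe libraries 70.2 ± 7.68 CPM (SD, n = 12 each). The difference was 0.28 in log2 units (SE 0.06, edgeR quasi-likelihood adjusted p = 0.000196), a 1.22-fold higher level in the amygdala with a 95% interval of 1.12 to 1.32. The 2 regions overlapped. Of the 12 amygdala libraries 7 lay above every dorsal raphe library, and of the 12 dorsal raphe libraries 10 lay below every amygdala library. Those in the overlap were high-responder dorsal raphe libraries 1 and 2, at 80.0 and 77.4 CPM.

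Differences between these regions were common, as 65.8% of the 14977 genes tested passed the same threshold, with 31.8% of all genes tested higher in the amygdala and 34.0% lower there. The difference of Nr3c1 was a small one among them. Of the 4764 genes called higher in the amygdala, 3838 (80.6%) had a larger log2 fold change than Nr3c1. The median size of a log2 fold change over all genes tested was 0.36.

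In high responders alone the region difference of Nr3c1 was 0.26 in log2 units (SE 0.07, edgeR adjusted p = 0.0077), where 52.1% of the genes tested passed. The lowest amygdala libraries, 2 and 4 at 78.4 and 78.8 CPM, lay below high-responder dorsal raphe library 1 at 80.0 CPM, so the regions overlapped. In low responders alone the difference was 0.32 (SE 0.10, edgeR adjusted p = 0.0135), where 50.9% of the genes tested passed. There all 6 amygdala libraries lay above all 6 dorsal raphe libraries. The 2 regions did not overlap, in either direction, for 32.9% of the genes tested in that line. Without low-responder dorsal raphe library 5 the low-responder difference was 0.25 (edgeR adjusted p = 0.0118) and that over both lines 0.26 (edgeR adjusted p = 0.000106).

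**Figure D2:**
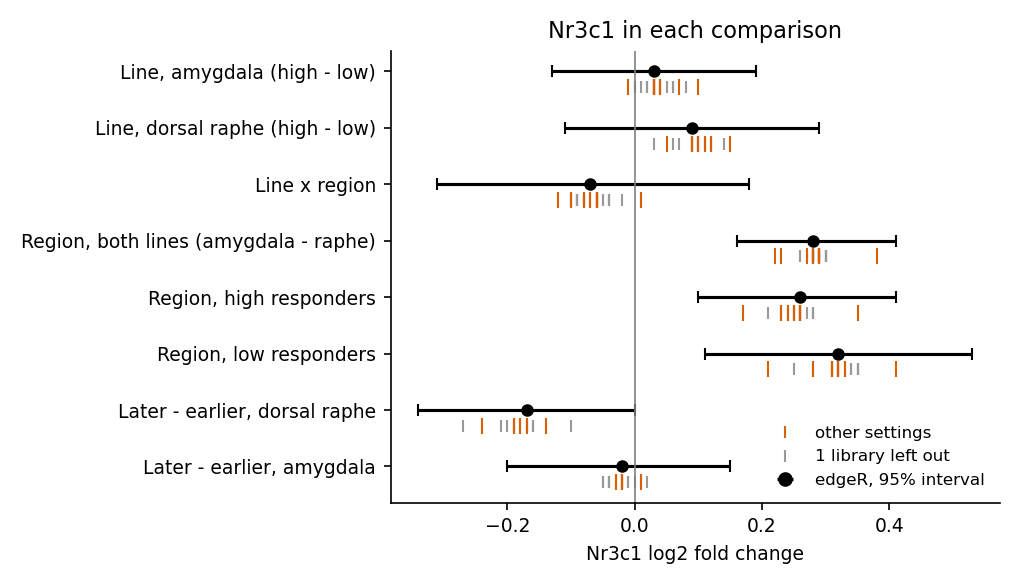
Log2 fold change of Nr3c1 (horizontal axis) in each comparison, with the edgeR estimate and its 95% interval as a point and bar. Orange ticks are other settings of the analysis and grey ticks are fits that left out 1 library. The 3 region intervals lie above 0, at 0.28, 0.26 and 0.32, while the intervals of the line comparisons span 0.

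Libraries were also split by the number in their file names, at the first break in the run of numbers of each group. High-responder dorsal raphe has a second break, before library 6, and both of its later runs were counted as later. Earlier and later hold within a group, since all low-responder libraries have lower numbers than all high-responder libraries. Line and number order therefore cannot be told apart. What the numbers stand for is not given in the sources used here. Libraries 5 and 6 of both amygdala groups and of low-responder dorsal raphe, and 4 to 6 of high-responder dorsal raphe, had the later numbers. Over both lines the region difference of Nr3c1 was 0.23 in the earlier libraries (edgeR adjusted p = 0.00787) and 0.38 in the later ones (edgeR adjusted p = 0.0125). In high responders it was 0.17 in the earlier libraries, which did not pass (edgeR adjusted p = 0.179), and 0.35 in the later ones (edgeR adjusted p = 0.0287). In low responders it was 0.28 in the earlier libraries (edgeR adjusted p = 0.0326) and 0.41 in the later ones, which did not pass (edgeR adjusted p = 0.133). The amygdala lay higher in each of these subsets. Runs were defined within a group, so each run held libraries of a single region by definition. Along the numbers of each line, runs of dorsal raphe and of amygdala libraries alternated. Region was therefore not tied to number order in the way that line was. A difference between neighbouring runs still cannot be told apart from a difference between regions.

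The comparison of the lines asked whether rats bred for opposite responses to novelty differ in receptor mRNA. In the amygdala the log2 ratio of high to low responders was 0.03 (SE 0.07, edgeR adjusted p = 0.952). Its 95% interval ran from -0.13 to 0.19, or 0.916-fold to 1.14-fold. The groups overlapped: low-responder libraries 1 and 6 lay below all high-responder libraries, and low-responder library 3 lay above all of them. Of the 14265 genes tested, 0.0210% passed. The difference was -0.01 in the earlier libraries (edgeR adjusted p = 0.999) and 0.10 in the later ones (edgeR adjusted p = 0.769).

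In the dorsal raphe the log2 ratio of high to low responders was 0.09 (SE 0.09, edgeR adjusted p = 0.999), with a 95% interval of -0.11 to 0.29, or 0.929-fold to 1.22-fold. Of the 14390 genes tested, 0.0625% passed. High-responder libraries 1 and 2 lay above all low-responder libraries, and low-responder library 5 lay below all high-responder libraries. The other 4 high-responder and 5 low-responder libraries overlapped. The difference was 0.11 in the earlier libraries (edgeR adjusted p = 0.68) and 0.15 in the later ones (edgeR adjusted p = 1.00). Without low-responder library 5 it was 0.03 (edgeR adjusted p = 0.872), so 1 library gave most of the estimate.

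The intervals span 0 and leave room for differences in either direction, so equal levels of the receptor mRNA are not shown.

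The line by region comparison asked whether the line difference itself differs between regions. The amygdala value less the dorsal raphe value was -0.07 in log2 units (SE 0.12, edgeR adjusted p = 1.00), with a 95% interval of -0.31 to 0.18. Of the 14977 genes tested, 0.00668% passed. The value was -0.12 in the earlier libraries and -0.06 in the later ones, and neither passed (edgeR adjusted p = 1.00 in both). It was 0.01 without low-responder dorsal raphe library 5 (edgeR adjusted p = 0.998).

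**Figure D3:**
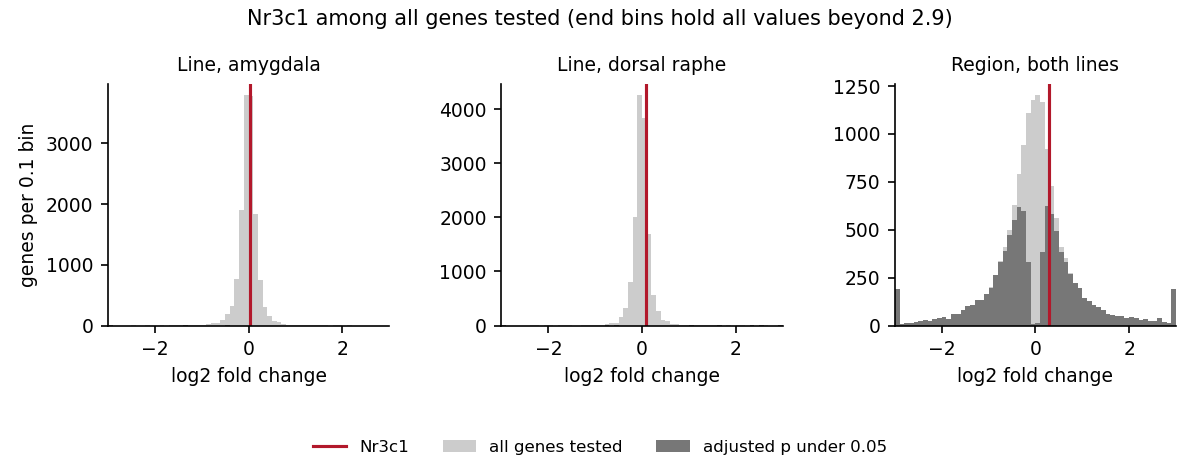
Histograms of log2 fold changes (horizontal axis, bins of 0.1) of all genes tested in light grey and of those past an adjusted p of 0.05 in dark grey, with Nr3c1 as a red line. Nr3c1 lies at 0.03 and 0.09 in the line comparisons, near the centre of all genes, and at 0.28 between regions, among many genes with larger differences.

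Within the dorsal raphe, Nr3c1 stood at 64.8 to 80.0 CPM in the 7 libraries with earlier numbers in their line, with a median of 74.0 CPM. It stood at 50.6 to 73.1 CPM in the 5 later ones, with a median of 67.4 CPM. With the line in the fit, the log2 difference of later minus earlier libraries was -0.17 (SE 0.08), which did not pass (edgeR adjusted p = 0.0911), while 48.1% of the genes tested passed. The size of this value, and whether it passed, changed with single libraries, though it stayed negative in each fit that left out 1 library. It was -0.10 without low-responder library 5 (edgeR adjusted p = 0.24), -0.27 without low-responder library 6 (edgeR adjusted p = 0.014) and -0.21 without low-responder library 2 (edgeR adjusted p = 0.0495). In the amygdala the 8 earlier libraries had a median of 84.0 CPM and the 4 later ones 85.5 CPM. The difference was -0.02 (SE 0.08, edgeR adjusted p = 0.986). There edgeR called 0 of 14265 genes, with 545 at an unadjusted p under 0.05, and DESeq2 and limma called 2 each. Whether the later-minus-earlier value differed between regions was not tested.

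The level of Nr3c1 was also set beside measures of each library. The 10 most counted genes took 3.60% to 7.93% of the counts in amygdala libraries and 7.68% to 15.2% in dorsal raphe libraries. The 2 amygdala libraries with the lowest shares, number 3 of both lines at 3.60% and 3.80%, had the highest Nr3c1 levels, 96.1 and 96.9 CPM. The dorsal raphe library with the highest share, low-responder library 5 at 15.2%, had the lowest Nr3c1 level, 50.6 CPM. Across the 12 libraries of a region, which share their tissue and scaling, the share and log2 CPM of Nr3c1 had a Pearson's r of -0.67 (Spearman's rho -0.55) in the amygdala and -0.87 (rho -0.77) in the dorsal raphe. Without the 2 libraries farthest from the median share, r was -0.13 in the amygdala, where the relation rested on those libraries, and -0.59 in the dorsal raphe. In the dorsal raphe the share was 7.68% to 10.2% in earlier and 9.25% to 15.2% in later libraries. On deviations from the means of the earlier or later libraries of each group, r was -0.71 for amygdala and -0.84 for dorsal raphe libraries. These deviations include the 2 amygdala libraries numbered 3, and r on deviations was not computed without them. The TMM factor enters the CPM as a divisor, so a higher factor lowers the CPM of a given count. This factor had an r with Nr3c1 of 0.79 for amygdala and 0.86 for dorsal raphe libraries. Without the 2 libraries farthest from the median factor, these values were 0.54 and 0.64. The number of detected genes had an r of -0.04 and -0.23. The library total and Nr3c1 had an r of 0.21 over amygdala libraries and -0.11 over dorsal raphe libraries.

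**Figure D4:**
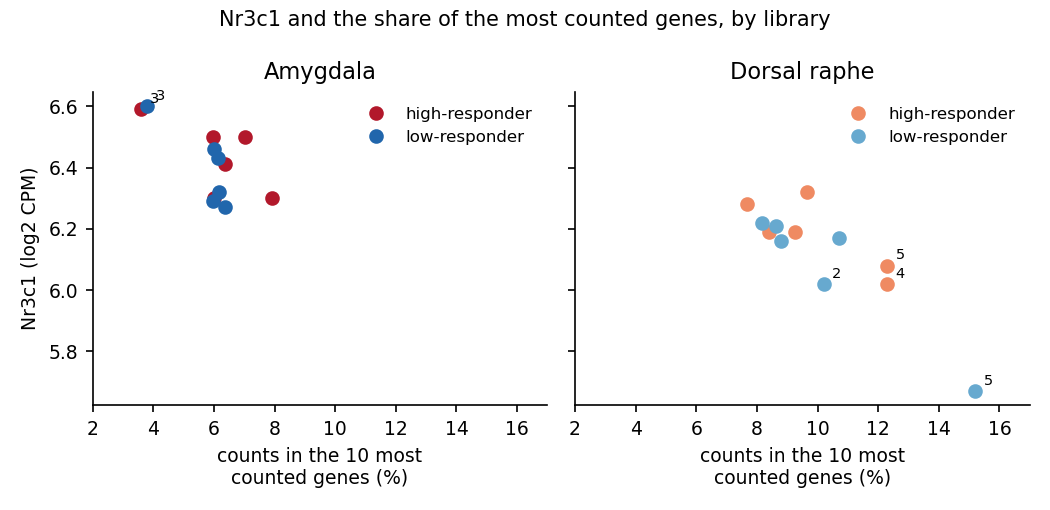
Nr3c1 level in log2 CPM (vertical axis) against the percentage of a library's counts in its 10 most counted genes (horizontal axis), with 1 point per library and the line by colour, and library numbers beside the highest and lowest levels. Both amygdala libraries numbered 3 lie at the upper left, at 3.60% and 3.80%, and low-responder dorsal raphe library 5 lies at the lower right, at 15.2%.

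The share of the most counted genes differed between regions as well, so its part in the region difference was not tested apart from region. When the 100 most counted genes of the series were left out and the libraries were scaled again, Nr3c1 in low-responder dorsal raphe library 5 stood at 62.4 CPM, against 80.4 to 100 CPM in the other 11 dorsal raphe libraries and 97.0 to 125 CPM in the amygdala. That library stayed lowest, and the region difference over both lines was again 0.28 (edgeR adjusted p = 0.000192). Since TMM already limits the effect of such genes, this refit does not test the part of the share in the region difference.

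Genes whose pattern was most like that of Nr3c1 were taken from the 10079 other IDs with a mean of at least 10 CPM, by Pearson's r of log2 CPM. They are given by ID, with no p. Over all 24 libraries, r holds the region difference as well as the spread within regions. ENSRNOG00000054695 followed Nr3c1 with an r of 0.93, 0.69 within the amygdala and 0.93 within the dorsal raphe. ENSRNOG00000005335 had an r of 0.93, with 0.79 and 0.88 within the regions. ENSRNOG00000005195 ran opposite to Nr3c1, with an r of -0.97, and of -0.89 and -0.95 within the regions. This abundant ID averaged 1300 ± 244 CPM over amygdala and 2100 ± 680 CPM over dorsal raphe libraries (SD, n = 12 each). ENSRNOG00000012722 also ran opposite, with an r of -0.94, and of -0.74 and -0.93 within the regions. An r beyond 0.8 in size was found for 9.09% of the 10079 IDs.

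The same search was made on the 24 deviations from the group means, which leave out region and line but keep the split by library number. ENSRNOG00000013965 and ENSRNOG00000025791 each had an r of 0.93 with Nr3c1, and each had 0.85 within the amygdala and 0.97 within the dorsal raphe. ENSRNOG00000005195 was again the most opposite, at -0.92, followed by ENSRNOG00000006898 at -0.89. Without low-responder dorsal raphe library 5 these values were 0.89, 0.89, -0.88 and -0.87. Within the dorsal raphe, on deviations from the means of the earlier or later libraries of each line, they were 0.97, 0.96, -0.92 and -0.85. Of the 10079 IDs, 4.20% had an r beyond 0.8 in size. ENSRNOG00000005195 thus ran opposite to Nr3c1 over all 24 libraries and on the deviations from group means, in each region. It was picked for its low r over these same libraries, so the values within regions are not separate support.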

How the data were processed

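Poly-A RNA was sequenced from amygdala and dorsal raphe, with RNA extracted by a Qiagen miRNeasy kit per the labels' protocols. Trim Galore, STAR and genome build rn6 were used per the submitters' processing notes, without versions. How reads were assigned to genes (program, annotation, strand, multiple matches) is not given in the sources used here. Raw counts of reads per Ensembl gene ID were what the authors deposited, in 1 table per library. Reads that overlap another gene or its antisense partner could not be told apart, which makes the value of a single ID uncertain to that extent. None of the 32662 IDs matched the RefSeq gene table of GRCr8, so 107 genes listed for the receptor's pathway and for cell types could not be found, and their counts were not made.

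The tests were quasi-likelihood tests of edgeR 4.0.16 under R 4.3.3 (filterByExpr, TMM, glmQLFit and glmQLFTest), with Benjamini-Hochberg adjustment over all genes tested and 0.05 as the threshold. Line comparisons used the 12 libraries of a region, region comparisons within a line its 12 libraries, and the other region and line by region comparisons all 24 as 4 groups. Later against earlier libraries were fitted with the line. The SE of a log2 fold change was derived from its F statistic. Log2 CPM used a prior count of 2. Alternatives were limma 3.58.1 (voom with quality weights), DESeq2 1.42.0, other scalings and filters, a replicate block, subsets of libraries and fits that left out each library. Fits were tested on simulated data. The closest pair of libraries in a group differed by a chi-square of 3.46 per degree of freedom, so none was counted as a duplicate. Intervals on single libraries are exact Poisson intervals and cover counting error only, since PCR copies of a molecule are not marked. The gene, the lists, the split by library number and the alternatives were chosen with earlier results of these data known. Named IDs were Nr3c1 and the 2 highest and 2 lowest in likeness to it, since no symbols were paired. Promoter sequences are from RefSeq, build GRCr8.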

Additional observations from a re-analysis of the deposited data

Results flagged for a closer look

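High-responder amygdala library 1 had a total of 20194601 counts, far from the other 5 of its group, which lay between 10333764 and 12243679. Its Nr3c1 count, 1819, was the highest of the series, while its level of 90.4 CPM lay inside the range of its group. In 12 groups of 6 values examined (Nr3c1 counts, Nr3c1 CPM and library totals in each of 4 groups) this was the 1 value set apart, and chance sets apart about 1 in 20. Low-responder dorsal raphe library 5, at 50.6 CPM, was not set apart by this measure, with a gap to the next library of 0.595 of the group's range.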

How the results depend on the processing

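The region difference of Nr3c1 over both lines kept its direction and passed in all 11 other settings (0.22 to 0.38) and in all 24 fits that left out 1 library (0.26 to 0.30). Within a line it passed in 11 of 12 settings and in each of the 12 fits without 1 library (0.21 to 0.28 in high responders, 0.25 to 0.35 in low responders). It did not pass in the earlier libraries of high responders (0.17) or in the later ones of low responders (0.41), each a fit of fewer libraries. The line differences passed in no setting, with 0.00 to 0.08 (amygdala) and 0.03 to 0.14 (dorsal raphe) when 1 library was left out. The amygdala value changed sign in the earlier libraries (-0.01). The line by region value changed sign with limma voom (0.01) and ranged from -0.10 to 0.01 with 1 library left out. The later-minus-earlier value in the dorsal raphe passed with library size only (-0.24, edgeR adjusted p = 0.0488) and ranged from -0.27 to -0.10 with 1 library left out. In the amygdala it was 0.01 with limma voom and ranged from -0.05 to 0.02. The step from low-responder amygdala to high-responder dorsal raphe did not pass with library size only (0.19). The cause of these changes was not tested. For equal library numbers, correlations of deviations between the regions ran from -0.45 to 0.27 in high responders and -0.24 to 0.17 in low responders. In these lines 1 and 0 of the 6 amygdala libraries matched best with their own number. Between the lines in dorsal raphe, where equal numbers must be different rats, the correlation reached 0.8. The measure therefore cannot tell whether equal numbers stand for the same rat. With a replicate block the values were 0.03 and 0.10 for the lines, -0.07 for line by region, and 0.29, 0.26 and 0.33 for the regions, and no call changed. All genes called numbered 3 with edgeR, 82 with DESeq2 and 246 with limma between the lines in amygdala, 9, 39 and 26 in dorsal raphe, and 1, 1 and 2 for line by region. Depth limits the counting precision of Nr3c1 to between 2.34% and 4.03% per library.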
